A study of Rattus norvegicus with 31 samples.

Results

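Aged rats whose spatial memory was unimpaired were compared with aged rats whose spatial memory was impaired, in both cases after a control task that could not be solved by place. All rats were male Long-Evans rats, an outbred strain, aged 24 months when their memory was assessed. No engineered allele or drug was part of the design, and the labels give no genotype of single rats. They had been sorted into aged unimpaired (AU) and aged impaired (AI) by a learning index from that assessment, water maze training some weeks before the session studied here. The non-spatial (NS) session had 8 trials in a new maze with a visible platform that changed place from trial to trial and with the prominent cues around the pool taken away. A probe trial without the platform followed, and tissue was taken about 2 hours after the task began. CA3 was dissected by hand from both hemispheres of each rat and pooled, and each array carried the RNA of 1 rat. The arrays were chosen by their labels: 8 AU-NS and 7 AI-NS arrays, 15 of the 31 in the series, because an eighth AI-NS array had been set aside as an outlier by the authors. Replicates are therefore separate rats. The labels mark groups by behaviour, so every difference is one between rats that differed before the session as well as after it.

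CA3 pyramidal cells receive mossy fibers from the dentate gyrus and send dense recurrent collaterals to one another, a circuit known for storing and completing patterns of activity. Release of transmitter at such synapses depends on SNARE proteins that fuse vesicles, on active zone scaffolds that dock and prime them, and on clathrin and Rab proteins that retrieve and sort the membrane. Training in a maze is also known to induce immediate early genes within minutes to hours. Each probeset of the array, a set of short probes aimed mostly at the 3′ end of a transcript, gives a log2 level, so a difference of 1 is a doubling.

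Across 16204 probesets limma called no gene, while at an unadjusted p more probesets lay higher in AU-NS than lower. By limma 0 probesets passed the threshold, an adjusted p of 0.1 (0.0%), and none came nearer to it than 0.139. Unadjusted, 1386 probesets (8.55%) lay higher in AU-NS with a p under 0.05, and 472 (2.91%) lay lower. SAM, the kind of permutation test used by the authors, was coded by hand, with package settings that are not given in the sources used here. It called 590 probesets higher and 0 lower at the same false discovery rate when it took the median of the permuted counts, and 80 higher and 0 lower when it took their mean. The median difference over all probesets was only 0.01, and 52.7% of them were positive. The share of higher ones depended on the scaling of the arrays. It was 74.6% of the probesets under 0.05 as deposited, 66.7% with the array medians made equal and 63.7% by quantile normalization. Lower probesets became rarer with brightness. With the table cut by level into 4 equal parts, they made up 4.44% of the dimmest part and 0.815% of the brightest, whereas higher probesets made up 7.18% and 9.18%. AI-NS rats varied more among themselves: the median SD of a probeset was 0.18 in AI-NS and 0.15 in AU-NS, and 62.4% of probesets had the larger SD in AI-NS.

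Complete separation of the groups was rare. Every AU-NS array lay above every AI-NS array for 22 probesets (0.136%), and every AU-NS array lay below every AI-NS array for 4 (0.0247%). The single-gene probesets with the smallest p held 9 of the former among the 10 higher ones and 1 of the latter, Gcfc2, among the 10 lower ones.

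**Figure D1:**
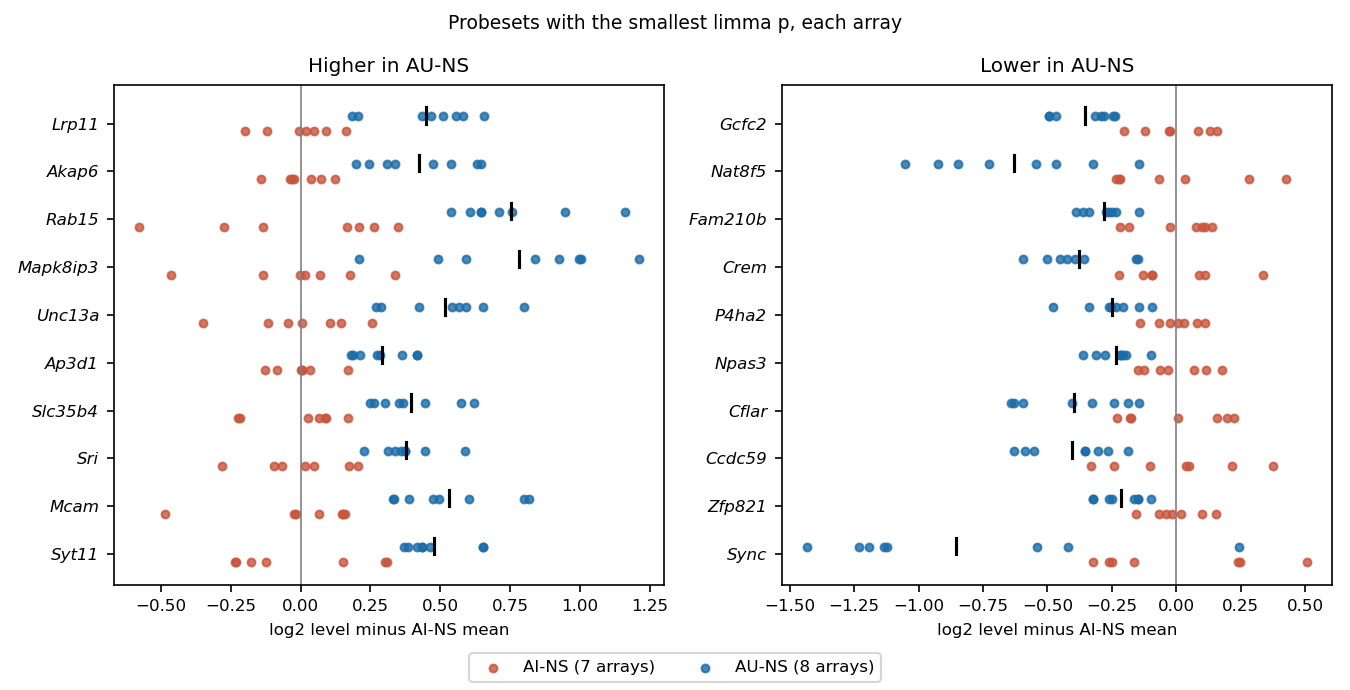
Log2 level of each array minus the AI-NS mean (horizontal axis) for the 10 higher and the 10 lower single-gene probesets with the smallest limma p. Points are arrays and black ticks are the AU-NS means. On the left only Mapk8ip3 has an AU-NS array within the AI-NS range, and on the right only Gcfc2 has no overlap.

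Of the 10 higher genes, Unc13a encodes the priming factor Munc13-1, and its level was 7.97, 8.26 and 8.51 (lowest, median and highest) in AU-NS and 7.36, 7.71 and 7.96 in AI-NS. The groups met but did not overlap, and the difference was 0.52 (SE 0.09, adjusted p = 0.139). Syt11, a synaptotagmin of vesicle traffic that does not bind calcium, had 10.10, 10.16 and 10.38 in AU-NS and 9.49, 9.60 and 10.04 in AI-NS. Its difference was 0.48 (SE 0.09, adjusted p = 0.143), and the AI-NS rats were split, with 3 nearer to the lowest AU-NS array and 4 farther below it. Mapk8ip3, the JNK scaffold that links cargo to kinesin, had the largest difference of the 10, 0.78 (SE 0.14, adjusted p = 0.139). It ran from 6.91 to 7.92 in AU-NS and from 6.24 to 7.04 in AI-NS, and 7 of 8 AU-NS arrays were above the highest AI-NS array. Akap6, which anchors protein kinase A, ran from 9.19 to 9.64 in AU-NS and from 8.85 to 9.12 in AI-NS. All 8 AU-NS arrays were above all AI-NS arrays, with a difference of 0.42 (SE 0.07). Of the 10 genes, Akap6 was moved least, to 0.40, when the 3′ minus 5′ level of control probesets was added to the fit.

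Mcam, the adhesion molecule CD146 of vessel walls, was dim, with 5.94, 6.09 and 6.43 in AU-NS and 5.12, 5.67 and 5.76 in AI-NS. The difference was 0.53 (SE 0.10), AI-NS replicate 8 lay far below the other AI-NS arrays, and the brighter Mcam probeset had a difference of 1.09 (SE 0.24). The remaining genes were Rab15, an endosomal GTPase, with 0.75 (SE 0.13), Lrp11, a membrane protein related to the LDL receptor, with 0.45 (SE 0.08), Slc35b4, a nucleotide sugar transporter, with 0.40 (SE 0.08), Sri, the calcium-binding protein sorcin, with 0.38 (SE 0.07), and Ap3d1, the delta subunit of the AP-3 sorting adaptor, with 0.29 (SE 0.06). In these 5 genes the groups did not overlap, but each has a brighter probeset that did not share the difference.

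Within a gene, the probesets did not share 1 difference. Lrp11 has 4 probesets, and from the brightest to the dimmest the AU-NS minus AI-NS difference was 0.06 (SE 0.04), 0.21 (SE 0.07), 0.35 (SE 0.08) and 0.45 (SE 0.08). App, the amyloid precursor, had 0.02 (SE 0.05), 0.14 (SE 0.05) and 0.46 (SE 0.11) in the same order. The brightest probeset of Rab15 had -0.09 (SE 0.06), that of Ap3d1 0.04 (SE 0.05), that of Sri 0.07 (SE 0.06) and that of Slc35b4 0.10 (SE 0.05). At the brightest probeset these genes had values close to equal in the groups, while the groups were separated at a dimmer probeset of the same gene. In Mcam and Zfp821 the larger difference was at the brighter probeset. It was 1.09 there and 0.53 at the dimmer one in Mcam, and -0.21 and -0.09 in Zfp821. The dimmer Mcam probeset still had no overlap of the groups, and at the brighter Zfp821 probeset the groups overlapped. Where on the transcript each probeset lies was not examined.

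The same held over the 2392 genes with several probesets, a comparison chosen after these values were seen. At the dimmest probeset of each gene 592 were higher (24.7%) and 50 lower (2.09%) at an unadjusted p under 0.05, and at the brightest 145 were higher (6.06%) and 38 lower (1.59%). The dimmest probeset had the larger difference in 1687 genes (70.5%). Taken per array, the median over these genes of the dimmest minus the brightest level was -1.99, -1.92 and -1.87 (lowest, median and highest) in AU-NS and -2.16, -2.02 and -1.96 in AI-NS. The dimmer probesets thus lay nearer to the brighter ones in AU-NS, by 0.11 on average (two-sided exact permutation test over 6435 relabellings, p = 0.0014), and leaving out any single array kept the difference between 0.09 and 0.13. AI-NS replicates 3 and 6 fell within the AU-NS range, replicate 7 just under it and replicates 1, 4, 5 and 8 farther below.

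**Figure D2:**
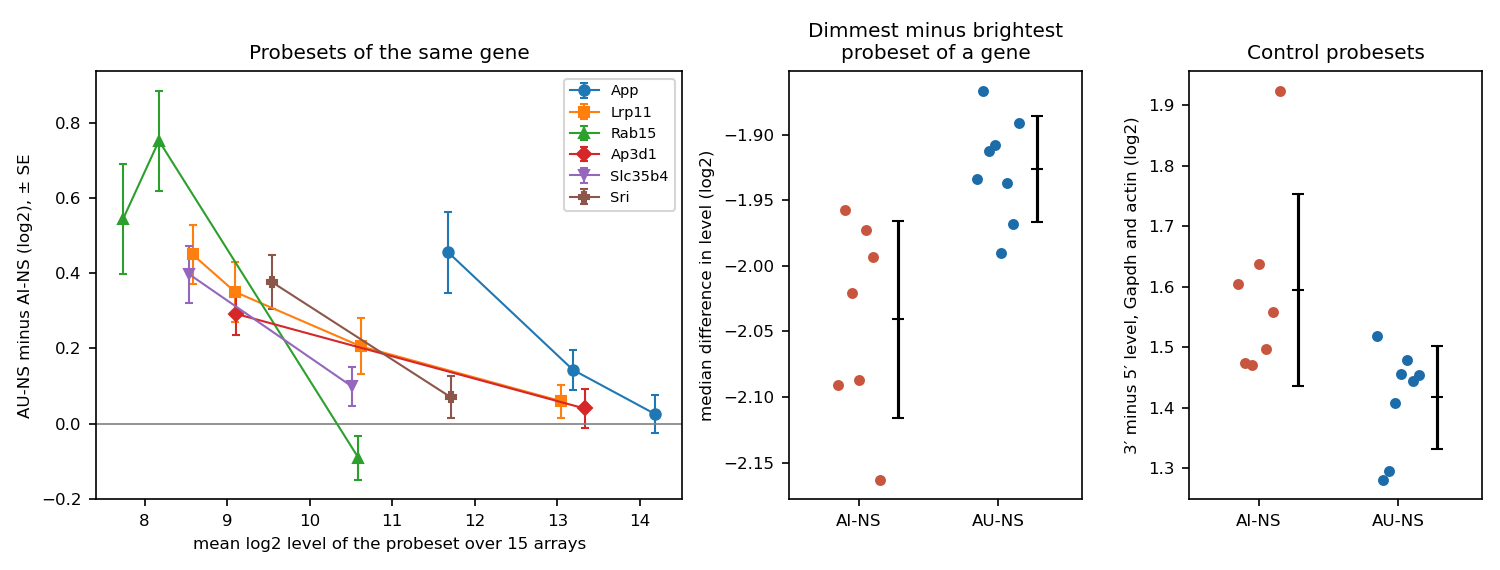
Left, AU-NS minus AI-NS difference (log2, ± SE) of each probeset of 6 genes against its mean log2 level over the 15 arrays. Middle, per array, the median over 2392 genes of the dimmest minus the brightest probeset level (AU-NS mean -1.93 ± 0.04 SD, AI-NS -2.04 ± 0.08 SD); right, the 3′ minus 5′ level of the control probesets (AU-NS 1.42 ± 0.09, AI-NS 1.59 ± 0.16); bars are mean and SD.

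Control probesets at both ends of 2 transcripts moved with the groups too. A larger 3′ minus 5′ level of Gapdh and beta-actin is a sign of shorter RNA or shorter labelled product. It was 1.28, 1.45 and 1.52 in AU-NS and 1.47, 1.56 and 1.92 in AI-NS, a difference of -0.18 (two-sided exact permutation test, p = 0.00435). AU-NS replicates 1 and 6 overlapped the AI-NS range, 3 AI-NS arrays lay inside the AU-NS range, and AI-NS replicate 8 stood apart at the top. Each control taken alone had the same sign: -0.11 for Gapdh (exact permutation p = 0.00963), -0.24 for beta-actin (exact permutation p = 0.0087) and -0.36 for hexokinase (exact permutation p = 0.0151). When limma was given this measure as a covariate, the median of the 1386 higher probesets went from 0.26 to 0.11, with 95.6% of them still positive, and that of the 472 lower ones from -0.24 to -0.20, with 99.6% still negative. The part of RNA length in the differences was not tested.

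Among the 10 lower genes, Gcfc2, a nuclear protein linked to splicing, ran from 5.05 to 5.30 in AU-NS and from 5.34 to 5.70 in AI-NS, a difference of -0.35 (SE 0.07, adjusted p = 0.139) without overlap. Its mean level of 5.35 was near the bottom of the table, and Cflar (5.63) and Nat8f5 (5.81) were dim too. Nat8f5, of an N-acetyltransferase family, had 5.09, 5.51 and 6.00 in AU-NS and 5.91, 6.08 and 6.57 in AI-NS, and its difference was -0.63 (SE 0.14, adjusted p = 0.155). In Nat8f5 1 AU-NS array lay within the AI-NS range. Sync, the intermediate filament protein syncoilin, had the largest difference, -0.85 (SE 0.22, adjusted p = 0.186), but AU-NS ran from 8.48 to 10.15 and one of its arrays sat among the highest AI-NS values. The brighter Sync probeset had -0.00 (SE 0.24). The others were Fam210b, a mitochondrial protein, with -0.28 (SE 0.06), P4ha2, a collagen prolyl hydroxylase, with -0.25 (SE 0.06), Npas3, a transcription factor of the bHLH-PAS family, with -0.24 (SE 0.06), Cflar, an inhibitor of caspase-8 signalling, with -0.40 (SE 0.10), Ccdc59 with -0.40 (SE 0.10) and the zinc finger gene Zfp821 with -0.21 (SE 0.06).

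Crem was among the 10 lower genes at 1 of its 2 probesets. The gene encodes activators and repressors that bind the cAMP response element, and its internal promoter gives ICER, a repressor that cAMP itself induces. The dimmer probeset read 6.88, 7.07 and 7.33 in AU-NS and 7.25, 7.38 and 7.81 in AI-NS, a difference of -0.38 (SE 0.09, adjusted p = 0.163). Of the AU-NS arrays 6 lay below every AI-NS array. The brighter probeset had -0.03 (SE 0.09). RefSeq lists 3 starts of Crem on the plus strand of chromosome 17 (build GRCr8), and the 250 bases before starts 2 and 3 are shown because both hold the palindromic cAMP response element, in capitals, to which the products of the gene bind.
Crem start 2, chr17:58984547-58984796: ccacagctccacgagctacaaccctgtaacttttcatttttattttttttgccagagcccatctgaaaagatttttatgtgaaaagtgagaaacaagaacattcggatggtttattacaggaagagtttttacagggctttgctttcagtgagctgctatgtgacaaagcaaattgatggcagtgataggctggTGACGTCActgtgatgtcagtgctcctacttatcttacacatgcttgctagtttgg
Crem start 3, chr17:58985240-58985489: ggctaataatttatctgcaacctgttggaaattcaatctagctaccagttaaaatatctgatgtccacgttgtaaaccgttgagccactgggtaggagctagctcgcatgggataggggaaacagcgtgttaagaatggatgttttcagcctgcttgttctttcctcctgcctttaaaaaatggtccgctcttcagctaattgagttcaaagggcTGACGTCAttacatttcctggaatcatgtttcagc
The motif begins 56 bases before start 2 and 35 before start 3, where another copy follows past the start. Start 1, which lies 5′ of both, has none in its window. The letters TGACGTCA, which read the same on both strands, occur in 612 of the 33469 promoter windows (1.83%). These windows run past the start, beyond the 250 bases shown. Where the 2 Crem probesets lie relative to these starts was not examined.

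Presynaptic release genes were the group with the largest number of higher members. Of 25 measured members of the SNARE and active zone list, read at the brightest probeset, 9 were higher and 0 lower at an unadjusted p under 0.05, beside 4.83% higher and 2.19% lower over the brightest probesets of 9036 genes. None had an adjusted p under 0.1. The median difference was 0.10, against 0.01 over the brightest probesets of all genes. Besides Unc13a and Syt11 the higher members were Pclo, Rims1, Nsf, Syn2, Syp, Cplx2 and Syt1. Unc13a, Syt11, Rims1, Syp, Cplx2 and Syt1 have a single probeset, so no other probeset of the gene could be read beside it. Pclo, the giant active zone scaffold piccolo, had 9.82, 10.18 and 10.40 in AU-NS and 9.35, 9.84 and 9.91 in AI-NS, a difference of 0.43 (SE 0.10, adjusted p = 0.155). All but 1 AU-NS array lay above the highest AI-NS array. Rims1, another active zone scaffold, had 0.23 (SE 0.07) and Nsf, the ATPase that takes spent SNARE complexes apart, 0.23 (SE 0.06), with 6 of 8 AU-NS arrays above all AI-NS arrays for Nsf. Cplx2, the SNARE clamp complexin 2, had 0.54 (SE 0.18), but its AI-NS arrays were spread from 9.04 to 10.23 and only 2 AU-NS arrays were above them. The vesicle proteins Syp, Syn2 and Syt1 had 0.16 (SE 0.05), 0.25 (SE 0.07) and 0.25 (SE 0.09). On the other side the vesicle glycoprotein Sv2b had -0.41 (SE 0.22).

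With the control measure as a covariate the same list had 4 members higher and 1 lower, with a median of 0.07, beside 1.05% higher and 1.86% lower over the brightest probesets of all genes. Pclo then had 0.23 and Unc13a 0.38, while Syt1 had 0.04. Leaving out single arrays kept the list's median between 0.07 and 0.14. Its mean level was 11.79, 11.85 and 11.92 in AU-NS and 11.58, 11.73 and 11.82 in AI-NS. The part of RNA length in these values was not tested.

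Of 22 clathrin and vesicle retrieval genes 4 were higher and 0 lower, and 20 had a positive difference, with a median of 0.11. Over the brightest probesets of all genes 4.83% were higher and 2.19% lower. Sh3gl2, endophilin A1, which bends membrane during endocytosis, had 11.04, 11.22 and 11.40 in AU-NS and 10.59, 10.95 and 11.23 in AI-NS, a difference of 0.31 (SE 0.09, adjusted p = 0.193). It was 0.27 with the control covariate. The groups overlapped, with 5 of 7 AI-NS arrays below the lowest AU-NS array. Amph, amphiphysin, had 0.17 (SE 0.06), Ap2m1, the mu subunit of the AP-2 adaptor, 0.14 (SE 0.06) and Ap1g1, the gamma subunit of AP-1, 0.18 (SE 0.06). Of 29 Rab GTPases 4 were higher at the brightest probeset: Rab1b with 0.37 (SE 0.10), Rab6b with 0.17 (SE 0.05), Rab5b with 0.15 (SE 0.05) and Rab1a with 0.10 (SE 0.04). With the control covariate 1 clathrin and vesicle retrieval gene (Sh3gl2) and 1 Rab gene (Rab6b, 0.14) were higher and 0 lower, and the medians were 0.03 and 0.02. Ap2m1 then had 0.02 and Rab1b 0.14. When any probeset of a gene could count, 14 of the 29 Rab genes had a higher one, beside 11.6% of all genes and 31.5% of the genes with several probesets.

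Genes of inhibitory transmission had 4 of 18 members higher and 0 lower, with a median of 0.06. Over the brightest probesets of all genes 4.83% were higher and 2.19% lower. Gad2, the GABA-synthesizing enzyme GAD65, had 8.92, 9.42 and 9.91 in AU-NS and 8.01, 8.92 and 9.52 in AI-NS. The difference of 0.59 (SE 0.20, adjusted p = 0.269) came with wide overlap, and only 2 AU-NS arrays were above all AI-NS arrays. Glrb, the glycine receptor beta subunit that binds gephyrin, was far tighter, with 12.80 to 13.00 in AU-NS and 12.66 to 12.81 in AI-NS. Its difference was only 0.14 (SE 0.04), yet 7 of 8 AU-NS arrays were above the AI-NS range. Gabra4, the GABA-A receptor alpha 4 subunit, had 8.63, 8.96 and 9.19 in AU-NS and 8.01, 8.40 and 8.84 in AI-NS, and 6 AU-NS arrays were above the AI-NS range. Its difference of 0.49 (SE 0.13) became 0.20 with the control covariate, that of Gad2 0.26 and that of Gabrg1, the gamma 1 subunit, went from 0.28 (SE 0.13) to -0.02. In that fit 0 of the 18 were higher or lower, and their median was 0.05. Interneuron markers did not lean one way: of 10, 1 was higher (Kit, 0.38) and 1 lower (Vip, -0.49). In bulk tissue fewer cells of a type and less RNA per cell cannot be told apart.

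Glutamate receptors had 1 of 14 higher and 1 lower, beside 4.83% higher and 2.19% lower over the brightest probesets of all genes. Both members are presynaptic metabotropic receptors that restrain release. Grm7 had a difference of 0.22 (SE 0.08) and Grm8 one of -0.38 (SE 0.12, adjusted p = 0.237), with 8.32, 8.77 and 9.05 in AU-NS and 8.78, 9.07 and 9.59 in AI-NS for Grm8. The groups overlapped for Grm8, with 4 AU-NS arrays below every AI-NS array. With the control covariate Grm8 had -0.10 and Grm7 0.08. Among 33 plasticity kinases and scaffolds 5 were higher and 0 lower, with a median of 0.04. They included Mapk8ip3, the kinase Mapk9 (JNK2) that it binds, with 0.34 (SE 0.10), Prkca, protein kinase C alpha, with 0.35 (SE 0.13), and the scaffold Lin7c with 0.67 (SE 0.29). Mapk8ip3 alone was higher with the control covariate, at 0.74, and the median was 0.02. Mapk9 then had 0.13, Prkca 0.14 and Lin7c 0.02.

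The amyloid precursor family and its secretases had 2 of 13 members higher and 0 lower. Over the brightest probesets of all genes 4.83% were higher and 2.19% lower. The 2 members were Aplp2, a paralog of App, with 0.18 (SE 0.06) and Apba2, an adaptor that binds the tail of App, with 0.21 (SE 0.09). App itself at its brightest probeset read 14.04 to 14.32 in AU-NS and 14.12 to 14.33 in AI-NS, so the groups overlapped almost completely. Adam10, the main alpha-secretase, had 0.29 (SE 0.22) at its brighter probeset, where AI-NS ran from 6.56 to 8.49 and enclosed AU-NS at 7.53 to 8.44. The dimmer Adam10 probeset, with a mean level of 5.60, had 0.84 (SE 0.32). With the control covariate the brighter Adam10 probeset had -0.21, Aplp2 had 0.05 and Apba2 0.08. None of the 13 was then higher, and the median went from 0.09 to -0.05.

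Of 23 activity-regulated genes measured, 17 had a negative difference, 0 were higher and 1 was lower, beside 2.19% lower over the brightest probesets of all genes, and the median was -0.06. Fosb, an immediate early gene of the AP-1 family, was that member, with 4.66, 4.90 and 5.04 in AU-NS and 4.70, 5.32 and 5.62 in AI-NS. Its difference was -0.31 (SE 0.13, adjusted p = 0.375), its levels were near the bottom of the table, and 4 AI-NS arrays were above all AU-NS arrays. The nuclear receptor Nr4a2 had -0.17 (SE 0.08) and Arc, whose product acts at dendritic spines, -0.22 (SE 0.14). Egr4, a zinc finger factor, had -0.13 (SE 0.08). Leaving out single arrays kept the median between -0.12 and -0.02, and with the control covariate it was -0.13. The cAMP response element shown for Crem lies in 2 of 26 promoter windows of 19 of these genes, those of Dusp1 and Vgf (7.69%, beside 1.83% of all windows). In the SNARE and active zone list it lies in 3 of 24 windows (12.5%), those of Napa, Syn1 and Vamp1. Glucocorticoid-responsive genes had 0 of 13 in either direction and a median of -0.04. Per1, a clock gene that corticosterone induces, had -0.18 (SE 0.17) and Ddit4 0.13 (SE 0.10).

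**Figure D3:**
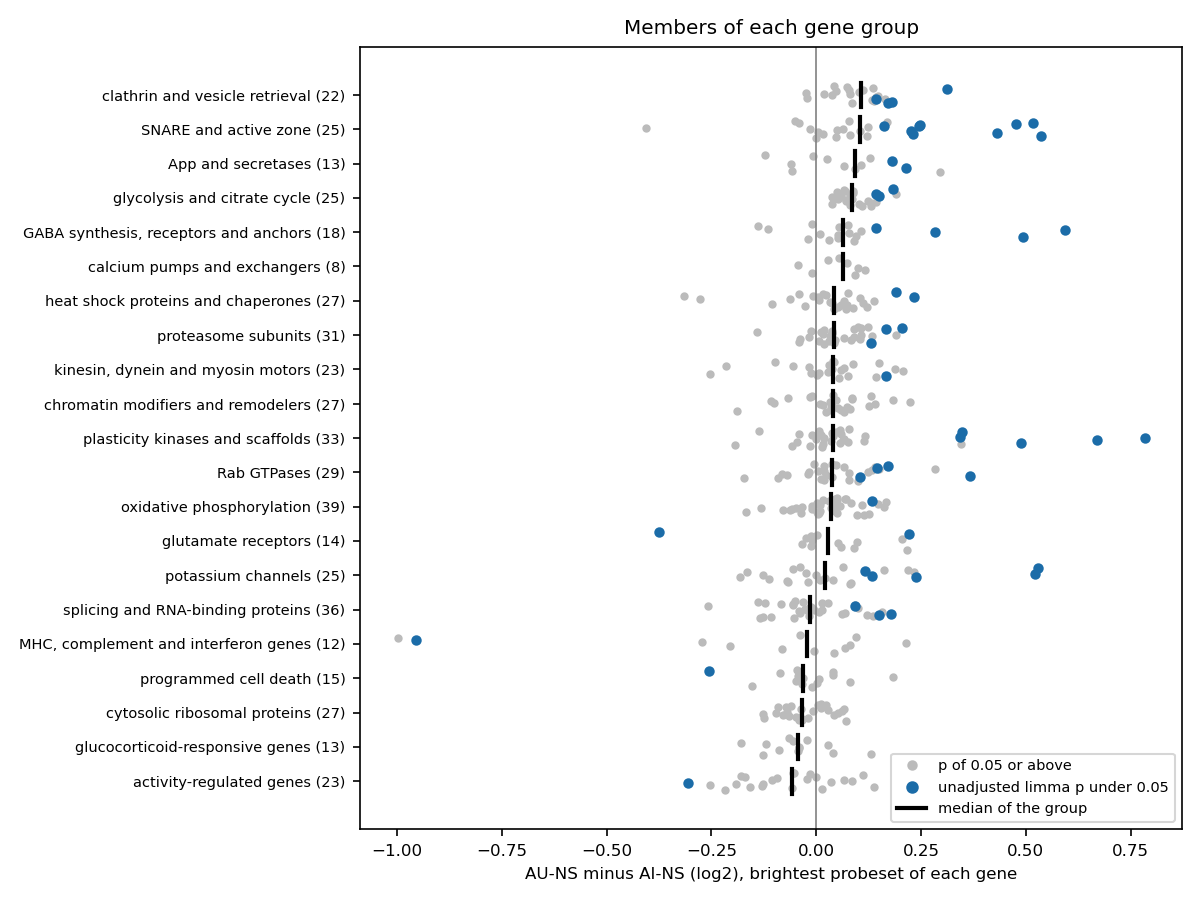
AU-NS minus AI-NS difference (log2, horizontal axis) of the brightest probeset of every measured member of each gene group, with the number of members in brackets. Blue points have an unadjusted limma p under 0.05 and black ticks are group medians, which run from -0.06 for activity-regulated genes to 0.11 for clathrin and vesicle retrieval.

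Over the brightest probesets of all genes 4.83% were higher and 2.19% lower, and over all probesets 52.7% were positive. All 25 measured genes of glycolysis and the citrate cycle had a positive difference, with a median of 0.08, and 3 were higher: Ogdh, of the 2-oxoglutarate dehydrogenase, with 0.15 (SE 0.06), Tpi1, triosephosphate isomerase, with 0.18 (SE 0.08) and Pfkm, phosphofructokinase, with 0.14 (SE 0.06). With the control covariate the median was 0.02, Tpi1 had 0.00 and Pfkm -0.01. Of 39 genes of oxidative phosphorylation 29 were positive, but 1 alone was higher, Sdha of complex II with 0.13 (SE 0.05), and the median was 0.04. Leaving out single arrays moved this median between -0.01 and 0.07, and with the control covariate it was -0.06, with 0 genes higher. Cytosolic ribosomal proteins had 0 of 27 in either direction and a median of -0.03.

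Over the brightest probesets of all genes 4.83% were higher and 2.19% lower. Of 31 proteasome subunits 3 were higher, namely Psmd4 with 0.21 (SE 0.09), Psmd3 with 0.17 (SE 0.07) and Psma3 with 0.13 (SE 0.06), and the median was 0.04. None was higher with the control covariate, the median was -0.03, and these 3 had 0.07, 0.01 and 0.05. Of 27 chaperones 2 were higher: Hspa9, the mitochondrial Hsp70, with 0.23 (SE 0.09), and Stip1, which links Hsp70 to Hsp90, with 0.19 (SE 0.08). Both had 0.00 with the control covariate. Of 36 splicing and RNA-binding proteins 3 were higher, with a median of -0.02, and of 27 chromatin modifiers none had a p under 0.05 in either direction.

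Channels, motors and calcium transport gave a few single members. Of 25 potassium channel genes 5 were higher, beside 4.83% higher over the brightest probesets of all genes. Kcnj10, the inward rectifier Kir4.1 of glia, had 6.54, 6.91 and 7.76 in AU-NS and 6.07, 6.54 and 6.82 in AI-NS, and 6 of 8 AU-NS arrays were above the AI-NS range. Its difference was 0.52 (SE 0.15, adjusted p = 0.218). Kcnh1, the ether-a-go-go channel, had 0.24 (SE 0.07), and 0.27 with the control covariate. Kcnip2, a subunit of A-type channels, had 0.13 (SE 0.04). In the fit with the control covariate 1 channel gene was higher (Kcnh1) and 2 lower, and Kcnj10 had 0.34 and Kcnip2 0.09. The dynein heavy chain Dync1h1, with 0.17 (SE 0.05), was the 1 higher gene among 23 motors, a share close to that over all genes. None of 8 calcium pumps and exchangers had a p under 0.05 at the brightest probeset. When any probeset of a gene could count, 3 of the 8 had a higher one. Over all genes this share was 11.6%, and over the genes with several probesets 31.5%.

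In each of the immune and cell death groups 1 gene was lower, beside 2.19% lower over the brightest probesets of all genes. Mx2, an interferon-induced GTPase, was the 1 lower gene of 12 in the group of MHC, complement and interferon genes, with 5.49, 5.86 and 7.47 in AU-NS and 6.48, 7.09 and 7.77 in AI-NS. Its difference was -0.96 (SE 0.28, adjusted p = 0.223), and 5 AU-NS arrays were below all AI-NS arrays. RT1-Da, an MHC class II chain of antigen-presenting cells, had -0.998 with an SE of 0.75, so its rats varied widely within the groups. Tnfrsf1a, the receptor of tumor necrosis factor, was the 1 lower gene of 15 in programmed cell death, with -0.26 (SE 0.09). Microglia markers had 0 of 8 in either direction and a mean level of 8.79 to 9.44 in AU-NS and 8.60 to 9.75 in AI-NS.

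The tissue held CA3 markers at bright levels, and few markers of other cell types had a p under 0.05. Over the brightest probesets of all genes 4.83% were higher and 2.19% lower. CA3 markers read between 10.57 and 10.80 on average in AU-NS and between 10.50 and 10.75 in AI-NS, and 1 of 5 was higher, Cpne4 with 0.13 (SE 0.04). Dentate granule markers had 0 of 5 in either direction, all 5 positive with a median of 0.13, and mean levels of 9.64 to 9.95 in AU-NS and 9.32 to 10.18 in AI-NS. CA1 markers had 0 of 7, with 9.35 to 10.50 in AU-NS and 9.87 to 10.85 in AI-NS. Oligodendrocyte markers had 2 of 12 higher, the myelin genes Opalin with 0.26 (SE 0.11) and Mal with 0.22 (SE 0.10), and 11 of 12 positive, with mean levels of 11.74 to 12.13 in AU-NS and 11.50 to 12.12 in AI-NS. Astrocyte markers had 1 of 11 higher, the glutamate transporter Slc1a2 with 0.25 (SE 0.11), and endothelial and mural markers 0 of 10. Their part in the differences of other genes was not tested.

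Arrays of opposite groups were less alike than AU-NS arrays among themselves, but not less alike than AI-NS arrays among themselves. The mean distance, 1 minus Pearson's correlation over all probesets, was 0.0147 between groups, 0.0120 among AU-NS and 0.0150 among AI-NS arrays. Between minus within, with the pairs of both groups pooled as within, was 0.00138 (one-sided exact permutation test, p = 0.0235). This value does not tell a separation of the groups from a difference in their spread. All 8 AU-NS arrays were nearer to their own group, but among AI-NS only replicates 1, 5 and 8 were, and replicates 3, 4, 6 and 7 were nearer on average to AU-NS. The p missed 0.05 without AI-NS replicate 8 (exact permutation p = 0.0629) or without AU-NS replicate 2, 3, 4, 6 or 8 (exact permutation p between 0.0571 and 0.0909).

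Calls appeared when 1 AI-NS rat was left out. Without AI-NS replicate 3, limma called 185 probesets higher and 23 lower, and the smallest adjusted p was 0.0383. All 208 had an unadjusted p under 0.05 with all 15 arrays too, and 95 had one with the control covariate. Among the 118 named genes 22 were then called, beside 208 of all 16204 probesets, with Akap6, Rab15, Syt11, Sri and Gcfc2 among them. Nearly all named genes were picked for a small p in these same arrays, and that choice raises their share. Without AU-NS replicate 5 or 8 the count was 2 or 1, and it was 0 without any of the other 12. AI-NS replicate 3 had a control difference of 1.47, among the lowest of its group, and the highest dentate granule marker score of all 15 arrays, 0.39. The part of either in the count was not tested. At an unadjusted p under 0.05 higher probesets ranged from 967 without AI-NS replicate 8, the array with the largest control difference, to 1723 without AI-NS replicate 4, the array with the highest CA1 marker score, 0.76.

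**Figure D4:**
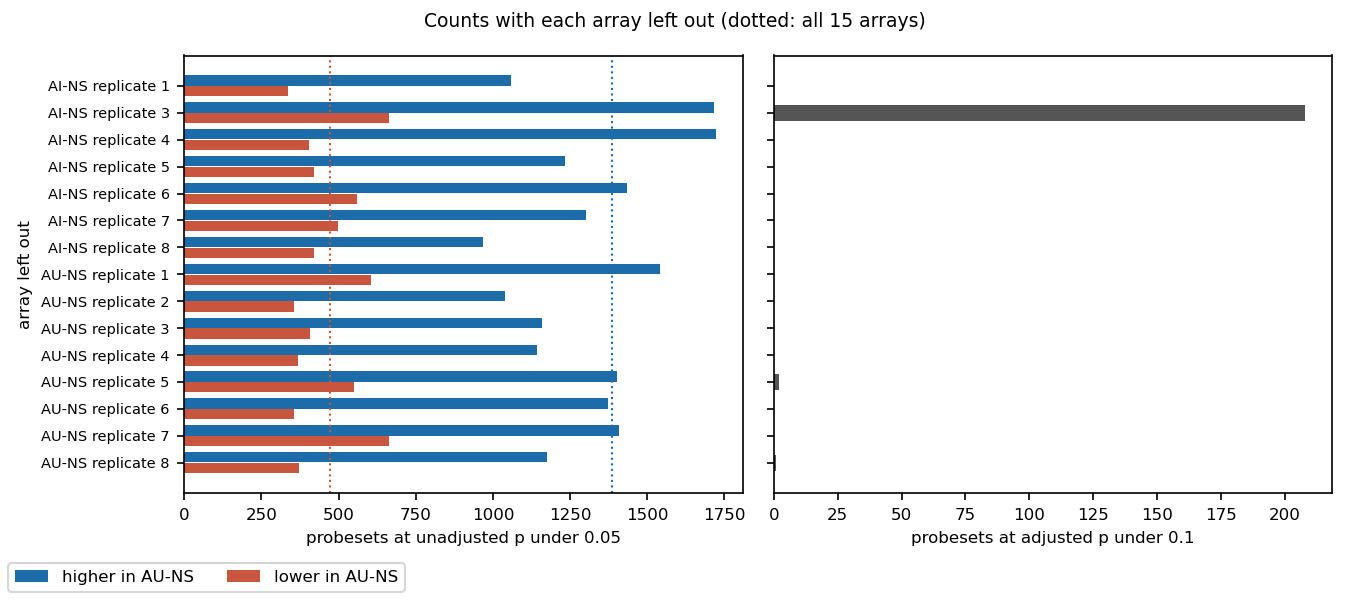
Number of probesets at an unadjusted limma p under 0.05 (left, by direction) and at an adjusted p under 0.1 (right) when each array in turn was left out. Dotted lines mark the 1386 higher and 472 lower probesets of all 15 arrays; the bar for AI-NS replicate 3 on the right stands at 208.

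Rats that had trained on the spatial version, 8 AU-S and 8 AI-S, served as a separate set in which to read the same members. A difference of the AU minus AI contrast between tasks was not detected: 0 probesets (0.0%) had an adjusted interaction p under 0.1 by limma, and 396 (2.44%) an unadjusted one under 0.05. Of the 1386 higher probesets 92.7% had a positive AU-S minus AI-S difference, where 53.9% of all probesets did, and of the 472 lower ones 78.6% had a negative one, where 46.1% of all did. The gap within genes recurred: the dimmest minus the brightest level was higher in AU-S than in AI-S by 0.08 (two-sided exact permutation test, p = 0.0163), beside a control difference of -0.11 (exact permutation p = 0.0502). All 10 higher genes had a positive difference in that set, from 0.11 for Mcam, 0.16 for Sri and 0.20 for Akap6 and Slc35b4 to 0.57 for Unc13a and 0.86 for Mapk8ip3. Of the 10 lower genes 8 had a negative one, from -0.34 for Ccdc59 to -0.03 for Npas3 and Zfp821, and P4ha2 had 0.05. Sync had 0.35 there against -0.85 after non-spatial training, and Gabra4 had -0.02 against 0.49, with adjusted interaction p-values of 1.0 for both by limma.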

How the data were processed

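RNA of CA3 was hybridized to Affymetrix rat expression arrays. The values are those the authors deposited: log2 levels made with gcRMA (GCRMA in the submitters' processing notes, version not given in the sources used here), which corrects background, normalizes over arrays and summarizes the probes of a probeset. In the 15 arrays they ran from 1.44 to 16.1, with array medians between 8.97 and 9.14. There are no counts behind array levels, and precision is limited by the number of rats. All 16204 probesets of the table average 5.00 or more across the 31 arrays. The platform annotation gave 1 gene for 12236 probesets (9036 genes), several for 293 and none for 3669, and 28 are control probesets. Hybridization batches and the set-aside AI-NS array were not analysed here.

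The test was limma 3.58.1 in R 4.3.3 (lmFit, eBayes, two-sided), with Benjamini-Hochberg adjustment over the whole table and a threshold of 0.1. SAM was coded by hand with 100 permutations. limma and SAM were also run on simulated data with known differences and independent noise in each probeset. Those data hold no correlation between probesets, so they do not check the calls where probesets move together. A gene in a list was read at its brightest probeset, or at its only one. Lists held 750 entries, of which 559 were measured. The members and lists were chosen with earlier results of these data known, and lists were described by counts and medians, with no test. Named genes were the 10 single-gene probesets with the smallest p in each direction, from each list the 3 members with the smallest p, all members of the SNARE and GABA lists with p under 0.05, and App and Adam10. Sv2b, Ap2m1, Rab1a, Lin7c, Arc, Per1, Dusp1, Vgf, Napa, Syn1, Vamp1 and further probesets of named genes were added after their values were seen. Promoter windows came from RefSeq (GRCr8). Alternatives are given in the closing section. Figures were drawn with Python 3.11.15 and matplotlib 3.10.9.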

Additional observations from a re-analysis of the deposited data

Results flagged for a closer look

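In 304 groups of 7 or 8 arrays, 19 values stood apart, with a gap to the next array that was a large part of the range of its group. Chance gives about 1 in 20 groups. The gap as a share of the range was 0.629 for the control 3′ minus 5′ difference of AI-NS replicate 8, which was the highest. In the same array Mcam (0.718), Pfkm (0.602) and Stip1 (0.711) were the lowest. AI-NS replicate 4 was the highest for the CA1 markers Mpped1 (0.626) and Ccn3 (0.575), for the mean level of CA1 markers (0.708) and for that of splicing and RNA-binding proteins (0.618). In AI-NS replicate 3 the mean level of oxidative phosphorylation genes was the highest (0.604) and the astrocyte gene Fgfr3 the lowest (0.61).

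Among AU-NS arrays, replicate 5 was the highest for the myelin gene Mal (0.632) and the microglia genes Ptprc (0.543) and Aif1 (0.659), and the lowest for the kinase Mapk9 (0.576). Replicate 1 was the lowest for the interneuron gene Pvalb (0.681), for Hnrnpc (0.636) and for the mean level of proteasome subunits (0.564). Replicate 6 was the lowest for the stress gene Ddit4 (0.801), and replicate 4 was the highest for Kcnip2 (0.5263).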

How the results depend on the processing

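The count of 0 probesets at an adjusted p under 0.1 became 40 with array weights, 163 with all 4 groups in the fit, 590 by SAM and 80 by SAM with the mean of the permuted counts (chosen after seeing the data); leaving out single arrays gave 0 to 208. It was 0 with equal array medians, with quantile normalization, with a robust prior that follows the mean level, with each limit on low values and with each covariate. The 1386 higher probesets became 268 with the control covariate and 370 with the hexokinase covariate, and the 472 lower ones 296 with the control covariate; leaving out single arrays gave 967 to 1723 and 337 to 664. The distance between minus within groups ranged from 0.000802 to 0.00216 with arrays left out. The replicate block gave 0 called, 1076 higher and 360 lower probesets. The labels do not say whether replicate numbers pair rats. Deviations of the 7 same-numbered pairs correlated at -0.187 to 0.311, and 2 exceeded 0.1. Such correlations cannot settle whether the numbers share a run or batch.

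Differences of named genes that changed sign were these. With the control covariate Grik4 had -0.0075, Bok -0.068, Hbb -0.71, Gabrg1 -0.024, Pfkm -0.0054, Hspa4l -0.0020, Kat5 -0.073, Kdm6b -0.022, Ifitm3 -0.0025, App -0.0098 and Adam10 -0.21. With the hexokinase covariate Grik4 had -0.060, Bok -0.0061, Ptprc 0.0031, Csf1r 0.030, Rgs5 -0.017, Hbb -0.34, Gabrg1 -0.0098, Kdm6b -0.0058, Kif3a -0.0060, App -0.037 and Adam10 -0.21. With dentate granule and CA1 marker scores Prox1 had -0.026, Ptprc 0.057 and Csf1r 0.035. Hbb had -0.18 with the replicate block and -0.18 to 0.30 with single arrays left out, negative without AU-NS replicate 2 and without AI-NS replicate 8 (-0.0013). Csf1r had -0.090 to 0.031 with single arrays left out, positive without AI-NS replicate 5 and without AI-NS replicate 7 (0.0038). The causes were not tested.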

Other observations

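Further genes were among those called by limma without AI-NS replicate 3, and they were picked after their values were seen. That array was singled out because its omission gave the most calls, so adjusted p-values of that fit do not control the false discovery rate. Adora1, the A1 adenosine receptor that restrains transmitter release, was higher in AU-NS by 0.91 without that array (adjusted p = 0.0677) and by 0.84 with it, and the brighter Adora1 probeset had 0.24 (SE 0.08). Gad1, the GABA-synthesizing enzyme GAD67, had 0.74 (adjusted p = 0.0677) without it and 0.63 with it at its dimmer probeset, but 0.11 (SE 0.07) at the brighter one. Sez6l2, a neuronal membrane protein, had 0.97 and 0.82, with 0.01 (SE 0.04) at its brighter probeset. Lynx1, which modulates nicotinic receptors, had 0.43 and 0.35, with 0.10 (SE 0.05) at the brighter one. On the lower side Nr4a3, an orphan nuclear receptor induced by activity, had -0.36 without that array (adjusted p = 0.0832) and -0.31 with it at 1 of its 3 probesets, and -0.0015 (SE 0.07) at the brightest.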
